A study of Mus musculus with 12 samples.

Results

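The Slc39a family, also called the ZIP family, holds the transporters that bring zinc into the cytosol. The 10 members described here are Slc39a1, Slc39a3, Slc39a4, Slc39a5, Slc39a6, Slc39a7, Slc39a8, Slc39a9, Slc39a11 and Slc39a14, out of 18193 genes measured in mouse liver. They were chosen by name. Each is read from the probe set annotated to it alone that had the highest mean over all 12 arrays. The 10 genes have 20 such probe sets, 5 genes with 1 and 5 genes with several, and the 10 remaining probe sets are described beside those that stand for the genes.

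Liver RNA was hybridised to Affymetrix GeneChip mouse arrays, with 4 arrays in each of 3 groups. The groups are wild type liver, liver of untreated Atp7b-/- mice and liver of Atp7b-/- mice that received zinc, all taken at 3 months of age and labelled with the C57Bl/6 strain. Atp7b is the copper pump through which hepatocytes load copper onto ceruloplasmin and pass it into bile, and its loss is the cause of Wilson disease. The sample titles give a replicate number and do not say whether each array came from its own animal. The sources used here do not give the dose, route and duration of the zinc or the sex of the mice. The p-values below thus measure the spread between arrays, which may be technical.

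ZIP proteins work against the Slc30a family, which moves zinc out of the cytosol into vesicles, organelles or the extracellular space. Some ZIP proteins sit in the plasma membrane and take zinc up from outside, and others release it from the endoplasmic reticulum or the Golgi. Slc39a8 and Slc39a14 also carry iron, manganese and cadmium, and Slc39a14 is the route by which hepatocytes take up iron that is not bound to transferrin. Oral zinc is a treatment for Wilson disease that lowers copper absorption in the gut.

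The zinc sensor Mtf1 switches on the metallothionein genes and the exporter Slc30a1 through metal response elements in their promoters. Promoters were therefore searched for the core of that element, TGCACNC or TGCGCNC, on both strands of the 250 bases before each RefSeq start site in mouse build GRCm38.p6. For 7 of the 10 members a promoter entry was used, with 10 start sites in all, and 5 of these windows, in 4 genes, held a match. In each line below the strand is that of the gene, capitals mark the match, and the sequence comes from RefSeq.

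Slc39a3, chr10:81037441-81037470, minus strand, match 144 to 138 bases before the start: catttggtagcTGCACTCatgtttagaaag
Slc39a5, chr10:128401335-128401364, minus strand, match 129 to 123 bases before the start: gaggttagcagGTGTGCActtagggaattg
Slc39a8, chr3:135825627-135825656, plus strand, match 19 to 13 bases before the start: ttatctctaaaGGGTGCAgggcctgatctc
Slc39a11, chr11:113650093-113650122, minus strand, match 15 to 9 bases before the start: gttaaaagggaaggaGAGCGCAgcgaaccc
Slc39a11 at its other start, chr11:113565937-113565966, minus strand, match 140 to 134 bases before the start: tttcctggggtGTGTGCActgccctaggcc

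The Slc39a3 match reads in the direction of the gene, and the other 4 read on the opposite strand. Slc39a1, Slc39a7 and Slc39a9 held no match in this window. Of all 32851 promoter windows of this length, 21.4% held at least 1 match. The window of Mt2 held 3 and those of Mt1 and Slc30a1 held 1 each. A match of 7 letters is a description of the sequence and does not show that the factor binds there.

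Before the results, the arrays themselves need a short account. Several of them stood apart from the rest. Acinar cell transcripts of the pancreas were present on zinc-treated replicates 2 and 3: the mean log2 level of 13 acinar markers was 9.30 and 6.74 there and between 5.39 and 5.77 on every other array. Wild type replicates 1 and 3 and zinc-treated replicate 3 had a narrower distribution of values, with a lower quartile of 4.26 to 4.29 against 4.13 to 4.19 on the other 9 arrays. The untreated Atp7b-/- arrays had the lowest lower quartiles, 4.13 to 4.16, against 4.177 or more on every wild type or zinc-treated array. Distribution of values and group thus cannot be told apart for untreated Atp7b-/-. Untreated Atp7b-/- replicate 1 correlated least with its own group (median r = 0.991 with the other arrays of the group, across genes). In addition the difference between 3' and 5' control probe sets, a sign of RNA quality, was larger on every untreated Atp7b-/- array (0.792 to 0.881) than on wild type (0.617 to 0.784) or zinc-treated arrays (0.541 to 0.739), so RNA quality and group cannot be told apart for untreated Atp7b-/-. The targeted gene Atp7b had a mean log2 level of 8.60 in wild type, 7.11 in untreated Atp7b-/- and 6.83 with zinc. Whether its probe set lies in the part of Atp7b that was disrupted is not stated, and if it lies elsewhere this is no check of the labels.

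Comparison of Atp7b-/- with wild type asks how the importers differed in liver without the copper pump. Slc39a11, Slc39a3 and Slc39a9 rose, by 0.65, 0.49 and 0.32 on the log2 scale, and no member fell. A gene was called at a Benjamini-Hochberg adjusted p under 0.05 from limma, fitted over all 18193 genes. In this comparison 14.3% of all genes were called higher and 10.3% lower, so 3 and 0 of 10 members stand beside a background of that size. The median difference over the members was 0.13, against -0.05 over all genes. On the same untreated Atp7b-/- arrays the 3' to 5' control difference given above was highest and the lower quartile of values was lowest. Of 12 macrophage markers, 7 were called lower in untreated Atp7b-/- than in wild type, though their mean on replicate 1 (8.52) lay within the wild type range. The part of any of these in the importers' differences was not tested. With 4 arrays a group the precision is limited by the number of arrays, and in RNA from whole liver a change in the number of cells of a type and a change in RNA per cell cannot be told apart.

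Zinc-treated and untreated Atp7b-/- liver were compared to see which importers differed with zinc. Slc39a11, Slc39a3 and Slc39a14 fell, by 0.57, 0.40 and 0.42, and no member rose. The background was 1.7% of all genes called higher and 4.84% called lower. The members' median difference was -0.10, against 0.01 over all genes. This comparison and the previous one share the untreated Atp7b-/- arrays, so opposite signs for a gene in both are not independent of each other.

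Against wild type, zinc-treated Atp7b-/- liver had higher Slc39a4 and Slc39a8, by 0.54 and 0.48, and no member called lower. Over all genes 4.89% were called higher and 2.73% lower. The members' median difference was 0.09, against -0.02 over all genes. All 12 macrophage markers had a negative difference in this comparison, with a median of -0.58 and 0 called, and their part in the importers' differences was not tested. Of the 10 members, Slc39a1, Slc39a5, Slc39a6 and Slc39a7 were called in none of the 3 comparisons.

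**Figure D1:**
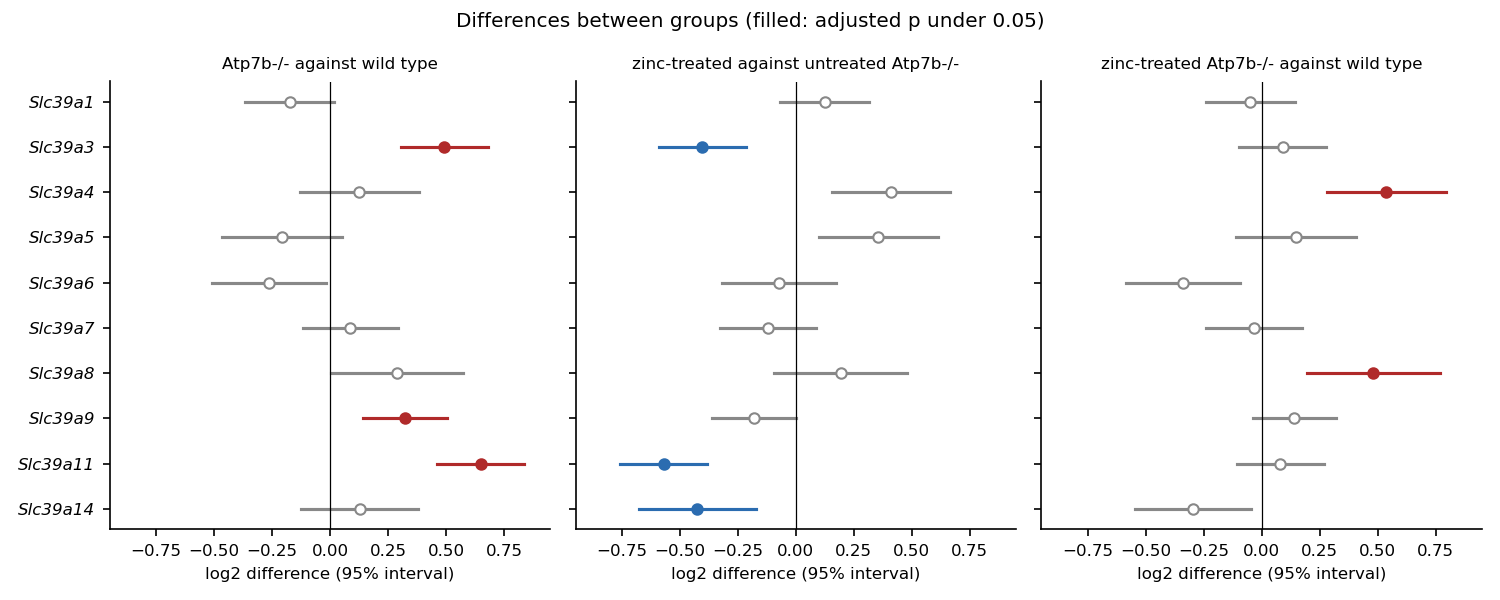
Difference between group means on the log2 scale for each importer, with its 95% interval, in the 3 comparisons of 4 against 4 arrays. Filled points had an adjusted p under 0.05: 3 red points to the right of 0 in Atp7b-/- against wild type, 3 blue points to the left in zinc-treated against untreated Atp7b-/-, and 2 red points in zinc-treated Atp7b-/- against wild type.

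Among the importers of internal membranes, Slc39a11 (probe set 1424905_a_at, gene 69806, chromosome 11), a member of a separate branch of the family found in the Golgi and the nucleus, had the clearest separation between groups. Its log2 levels were 9.22, 8.98, 9.18 and 9.23 on the wild type arrays, 9.73, 9.78, 9.83 and 9.88 on those of untreated Atp7b-/-, and 9.22, 9.39, 9.04 and 9.28 with zinc. All 4 untreated mutant arrays lay above all 8 others, and the wild type and zinc-treated arrays overlapped.

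The mean of Slc39a11 was 9.15 ± 0.11 (SD, n = 4) in wild type, 9.80 ± 0.07 in Atp7b-/- without zinc and 9.23 ± 0.14 with it. The rise in Atp7b-/- was 0.65 (SE 0.09, limma adjusted p = 0.000128), or 1.57-fold. With zinc it fell by 0.57 (SE 0.09, adjusted p = 0.00178). The difference between zinc-treated Atp7b-/- and wild type was 0.08, with a 95% interval from -0.11 to 0.27 (adjusted p = 0.655), so a difference of up to 0.27 is not excluded. Both calls held in each of 25 alternative analyses, at 0.56 to 0.70 and at -0.62 to -0.51, including those without the arrays that stood apart. The gene has a single probe set on the array, so no second reading was available.

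Slc39a9 (1452765_at, gene 328133, chromosome 12) encodes a Golgi and plasma membrane importer that was also described as a membrane androgen receptor in fish and human cells. Its levels were 8.89, 8.86, 8.77 and 8.96 in wild type, 9.21, 9.02, 9.40 and 9.15 in Atp7b-/- without zinc, and 9.02, 9.06, 8.94 and 9.01 with zinc. Untreated mutant arrays all lay above the wild type arrays, by a narrow margin, while the zinc-treated arrays overlapped with both groups.

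The rise of Slc39a9 in Atp7b-/- was 0.32 (SE 0.08, limma adjusted p = 0.0132). Zinc-treated minus untreated Atp7b-/- was -0.18 (adjusted p = 0.224), and zinc-treated Atp7b-/- minus wild type was 0.14 (adjusted p = 0.361). The call in Atp7b-/- was lost after quantile normalization (0.22, adjusted p = 0.0560), without the 3 arrays of narrower distribution (0.28, adjusted p = 0.103) and with that distribution as a term of the fit (0.28, adjusted p = 0.0503). It was also lost when all probe sets of the gene were averaged (0.09, adjusted p = 0.424).

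Slc39a7 (1416949_s_at, gene 14977, chromosome 17) releases zinc from the endoplasmic reticulum. Its levels ran from 9.63 to 9.91 in wild type, from 9.77 to 10.09 in untreated Atp7b-/- and from 9.61 to 9.92 with zinc. The groups overlapped throughout. Differences were 0.09 for Atp7b-/- against wild type (95% interval -0.12 to 0.29), -0.12 for zinc-treated against untreated and -0.03 for zinc-treated against wild type, and none passed the test (limma adjusted p = 0.524, 0.505 and 0.888).

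**Figure D2:**
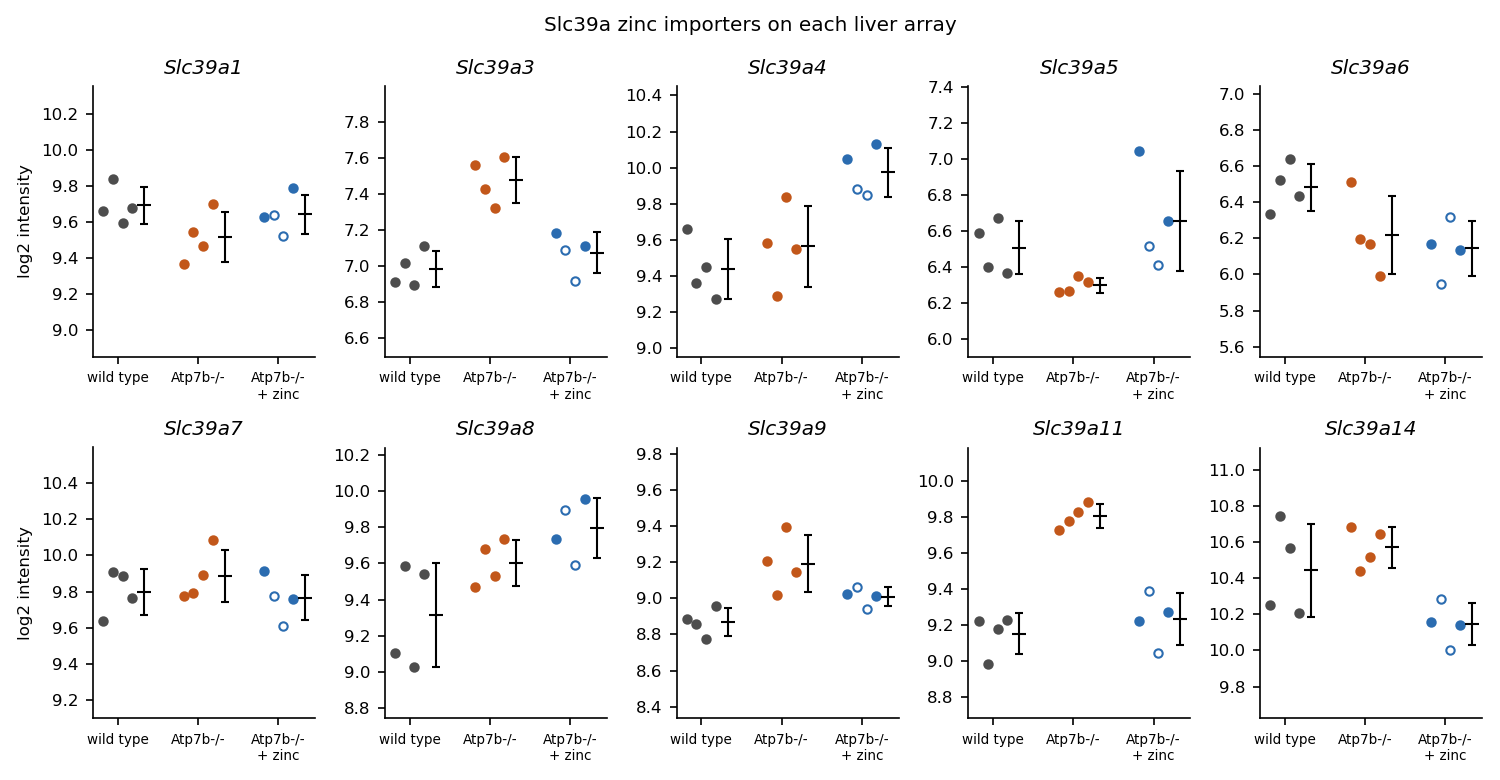
Log2 intensity of each importer on each of the 12 arrays, with the mean and SD of the 4 arrays of a group beside the points; every panel spans 1.5 log2 units, and open blue circles are the pair of zinc-treated arrays with pancreatic transcripts, replicates 2 and 3. Slc39a11 in untreated Atp7b-/- lies between 9.73 and 9.88, above every other array, while Slc39a8 in wild type splits into arrays near 9.03 to 9.10 and arrays near 9.54 to 9.58.

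Of the importers at the plasma membrane of most cells, Slc39a3 (1417882_at, gene 106947, chromosome 10) rose in Atp7b-/- and fell with zinc. Its log2 levels were 6.91, 7.02, 6.89 and 7.11 in wild type, 7.56, 7.43, 7.32 and 7.60 in Atp7b-/- without zinc, and 7.18, 7.09, 6.92 and 7.11 with zinc. As for Slc39a11, each untreated mutant array lay above all arrays of the other groups, which overlapped.

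The change of Slc39a3 was 0.49 in Atp7b-/- against wild type (SE 0.09, limma adjusted p = 0.00118), or 1.41-fold. Zinc-treated liver was lower than untreated by 0.40 (value -0.40, adjusted p = 0.0148), and differed from wild type by 0.09 (95% interval -0.10 to 0.28, adjusted p = 0.610). The rise in Atp7b-/- held in all 25 alternatives. The fall with zinc did not: its adjusted p was 0.0553 without untreated Atp7b-/- replicate 4 (-0.36), 0.0520 without the 3 arrays of narrower distribution (-0.35) and 0.132 without the zinc-treated arrays that carried pancreatic transcripts (-0.33). It was 0.202 when untreated Atp7b-/- replicate 1 was left out as well (-0.30), and 0.0947 as the mean of all probe sets (-0.18).

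Slc39a1 (1424424_at, gene 30791, chromosome 3) is the closest relative of Slc39a3 in the same subfamily. RefSeq lists a pseudogene, Slc39a1-ps, whose transcript could share probes with it. Its levels ran from 9.59 to 9.84 in wild type, from 9.37 to 9.70 in untreated Atp7b-/- and from 9.52 to 9.79 with zinc, so all groups overlapped. Atp7b-/- minus wild type was -0.17 (95% interval -0.37 to 0.02, limma adjusted p = 0.169), and the differences with zinc were 0.12 against untreated and -0.05 against wild type. After quantile normalization the first of these became -0.26 and passed the test (adjusted p = 0.0268).

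Slc39a14 (1427035_at, gene 213053, chromosome 14), the importer of zinc, iron and manganese that interleukin 6 induces in hepatocytes, had levels of 10.25, 10.75, 10.57 and 10.21 in wild type. They were 10.68, 10.44, 10.52 and 10.65 in Atp7b-/- without zinc and 10.16, 10.29, 10.0015 and 10.14 with zinc. Every zinc-treated array lay below every untreated mutant array, whereas the wild type arrays spread over both.

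Zinc-treated minus untreated Atp7b-/- was -0.42 for Slc39a14 (SE 0.12, limma adjusted p = 0.0464). Atp7b-/- minus wild type was 0.13 (adjusted p = 0.442) and zinc-treated Atp7b-/- minus wild type was -0.30 (adjusted p = 0.155). This call lay close to the threshold and was lost in 16 of 25 alternatives, with the sign kept in all of them. Leaving out 1 array gave -0.47 to -0.38. The call ended without any one of the untreated Atp7b-/- or zinc-treated arrays or wild type replicate 3, with adjusted p between 0.0536 (without untreated Atp7b-/- replicate 2) and 0.125 (without untreated Atp7b-/- replicate 4). It was 0.0773 after quantile normalization, 0.168 without the arrays with pancreatic transcripts and 0.131 without the arrays of narrower distribution.

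Slc39a8 (1416832_at, gene 67547, chromosome 3), which reclaims manganese from bile in hepatocytes and also carries zinc, had levels of 9.10, 9.58, 9.03 and 9.54 in wild type. They were 9.47, 9.68, 9.53 and 9.74 in Atp7b-/- without zinc and 9.74, 9.90, 9.59 and 9.96 with zinc. All zinc-treated arrays lay above the wild type arrays, the lowest at 9.59 next to the highest wild type array at 9.58, while untreated mutants overlapped with both. The arrays of narrower distribution, wild type replicates 1 and 3 and zinc-treated replicate 3, were the lowest of their groups.

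The difference of Slc39a8 between zinc-treated Atp7b-/- and wild type was 0.48 (SE 0.13, limma adjusted p = 0.0415), or 1.40-fold. Atp7b-/- minus wild type was 0.29 (adjusted p = 0.126) and zinc-treated minus untreated was 0.19 (adjusted p = 0.433). Without the 3 arrays of narrower distribution the call was lost and the difference became 0.30 (adjusted p = 0.211), and Atp7b-/- minus wild type became 0.04 (adjusted p = 0.831). With the distribution as a term of the fit they were 0.38 (adjusted p = 0.0186) and 0.09 (adjusted p = 0.560). The call against wild type was lost in 13 of 25 alternatives. Among them were the leaving out of wild type replicate 1 (0.41, adjusted p = 0.121) or 3 (0.39, adjusted p = 0.116), of untreated Atp7b-/- replicate 2, 3 or 4 (adjusted p = 0.0556, 0.0531 and 0.0529) and of zinc-treated replicate 1, 2 or 4 (adjusted p = 0.0667, 0.111 and 0.116).

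Slc39a4 (1451139_at, gene 72027, chromosome 15) is best known as the zinc importer of the gut lining, where its loss in humans causes acrodermatitis enteropathica. In liver its log2 levels were 9.66, 9.36, 9.45 and 9.27 in wild type, 9.59, 9.29, 9.84 and 9.55 in Atp7b-/- without zinc, and 10.05, 9.88, 9.85 and 10.13 with zinc. All zinc-treated arrays lay above all 8 others, although the lowest of them, at 9.85, stood next to the highest untreated mutant array at 9.84.

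Against wild type the zinc-treated level of Slc39a4 was higher by 0.54 (SE 0.12, limma adjusted p = 0.0134), or 1.45-fold, and this call held in all 25 alternatives at 0.48 to 0.70. Against untreated Atp7b-/- the difference was 0.41 (95% interval 0.15 to 0.67), which did not pass the test (adjusted p = 0.0576). It passed in 6 alternatives, among them without wild type replicate 1 (adjusted p = 0.0490) and without untreated Atp7b-/- replicate 3 (0.50, adjusted p = 0.0236). Untreated Atp7b-/- minus wild type was 0.13 (adjusted p = 0.454). Of 8 measured intestinal epithelium markers, 0 were called higher and 2 lower in zinc-treated Atp7b-/- against wild type, with list means of 6.41 to 6.74 in wild type and 6.19 to 6.29 with zinc.

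Slc39a5 (1429523_a_at, gene 72002, chromosome 10) carries zinc at the basolateral side of enterocytes and in the exocrine pancreas. Its levels were 6.59, 6.40, 6.67 and 6.37 in wild type, 6.27, 6.27, 6.35 and 6.32 in Atp7b-/- without zinc, and 7.04, 6.51, 6.41 and 6.65 with zinc. Untreated mutant arrays lay below all others, but no comparison passed the test: the differences were -0.21 (limma adjusted p = 0.222), 0.36 (0.0971) and 0.15 (0.524) in the order used above.

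Because Slc39a5 is a pancreatic gene, its levels were set beside the acinar transcripts. Zinc-treated replicates 2 and 3, with the acinar transcripts, had 6.51 and 6.41, below the 7.04 and 6.65 of zinc-treated replicates 1 and 4. Without replicates 2 and 3 the difference between zinc-treated and untreated Atp7b-/- was 0.55 and passed the test (adjusted p = 0.0350), and with array weights the adjusted p was 0.0499. Of the 13 measured acinar markers 0 were called in any comparison, with the high values on 2 of the 4 zinc-treated arrays. The part of pancreatic RNA in the Slc39a5 values was not tested.

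For Slc39a6 (1424674_at, gene 106957), the plasma membrane importer, regulated by oestrogen in human breast cancer cells, that gave the LIV-1 subfamily its name, levels ran from 6.34 to 6.64 in wild type. In untreated Atp7b-/- they ran from 5.99 to 6.51 and with zinc from 5.95 to 6.32. The zinc-treated arrays lay below the wild type arrays, with a difference of -0.34 (95% interval -0.58 to -0.09) that did not pass the test (limma adjusted p = 0.0949). Untreated Atp7b-/- minus wild type was -0.26 (adjusted p = 0.107). Untreated Atp7b-/- replicate 1 was the highest of its group, and without it these differences passed, at adjusted p = 0.0454 for zinc-treated against wild type and at -0.36 with adjusted p = 0.0241 for Atp7b-/- against wild type.

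**Figure D3:**
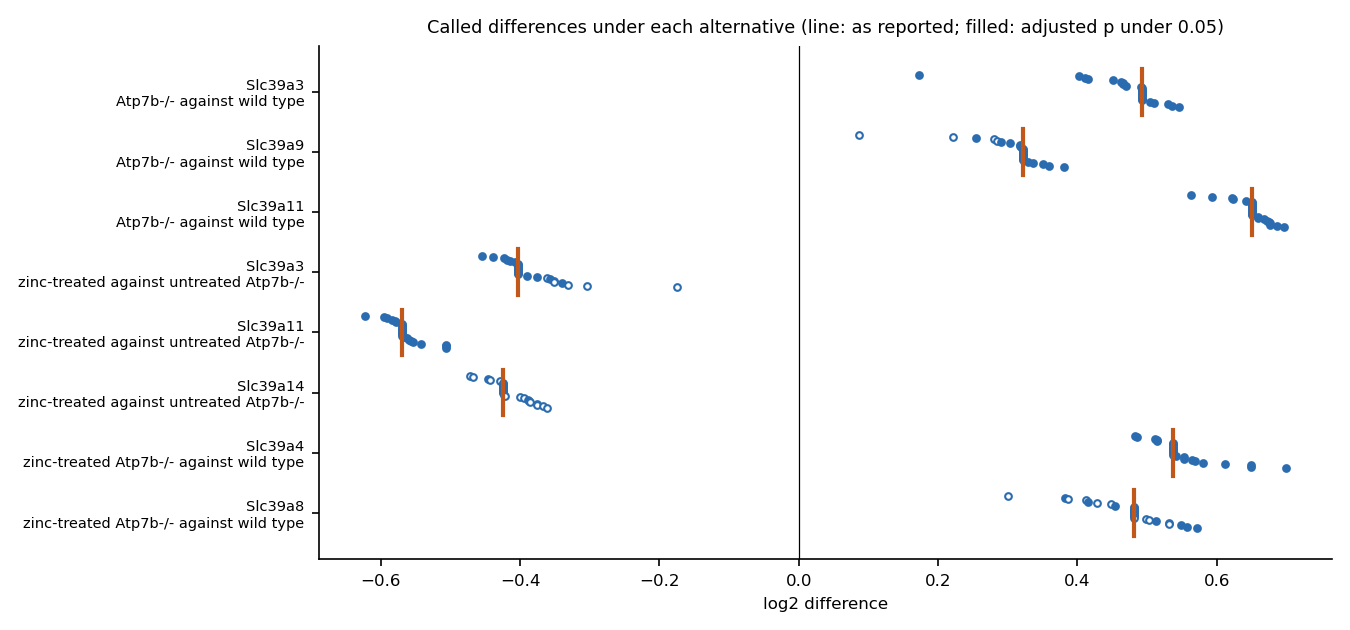
Log2 difference of each of the 8 called results under every alternative (points) and as reported (orange line); filled points had an adjusted p under 0.05. Slc39a11 in both comparisons, Slc39a3 in Atp7b-/- against wild type and Slc39a4 in zinc-treated Atp7b-/- against wild type stayed filled in all 25, while Slc39a14 kept its call in 9 and Slc39a8 in 12.

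The probe sets of a gene did not always move together. Of the 20 probe sets, 5 were called in Atp7b-/- against wild type, where 21.3% of all probe sets with 1 gene symbol were called. In zinc-treated against untreated Atp7b-/- 2 were called beside 5.21% of all, and in zinc-treated Atp7b-/- against wild type 2 beside 5.85%. Among the 10 probe sets that did not stand for a gene, 2 were called in the first comparison and 0 in either of the others. These values come from a separate limma fit over 34945 probe sets, in which 1427035_at of Slc39a14 had an adjusted p = 0.0530 in zinc-treated against untreated Atp7b-/-.

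Slc39a14 had 4 probe sets. Probe set 1457770_at read 7.54, 8.01, 8.04 and 7.56 in wild type, 8.45, 8.72, 8.48 and 8.90 in Atp7b-/- without zinc, and 7.82, 8.84, 7.92 and 7.81 with zinc. It rose in Atp7b-/- by 0.85 (SE 0.21, limma adjusted p = 0.0112), where the probe set that stands for the gene gave 0.13, 1438490_at gave 0.05 and 1425649_at gave -0.05. Zinc-treated minus untreated Atp7b-/- was negative for all 4 probe sets, at -0.42, -0.54, -0.27 and -0.21. None of these passed the test in the fit over probe sets.

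For Slc39a3, the other probe set, 1417881_at, went the other way from the called one, with -0.15 in Atp7b-/- against wild type (limma adjusted p = 0.140) and 0.05 in zinc-treated against untreated. It ran from 6.82 to 6.96 in wild type and from 6.66 to 6.80 in untreated Atp7b-/-, without overlap. The call of a rise in Slc39a3 thus rests on 1417882_at, although the mean of both probe sets still gave 0.17 (adjusted p = 0.0434).

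For Slc39a9, probe set 1421250_at also went the other way, with -0.15 (limma adjusted p = 0.123) beside the called 0.32. Probe set 1421249_at had the sign of the called one, with 0.09 (SE 0.20, limma adjusted p = 0.776). Both were dimmer than the called probe set, with means over all arrays of 6.09 and 4.46 against 9.02. Probe set 1421250_at ran from 6.12 to 6.28 in wild type and from 6.01 to 6.07 in untreated Atp7b-/-, without overlap. For Slc39a8, probe set 1448482_at had the sign of 1416832_at in each comparison, with 0.35 in zinc-treated Atp7b-/- against wild type (adjusted p = 0.0743). For Slc39a6, probe set 1424675_at was lower in Atp7b-/- by 0.42 (value -0.42, adjusted p = 0.0243), with all 4 untreated mutant arrays below all 4 wild type arrays. The remaining 1447893_x_at and 1441949_x_at of that gene gave -0.12 and -0.26, the latter at group means of 3.07 to 3.32, under the lower quartile of each array. Which transcripts or parts of a transcript each probe set reads was not examined.

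**Figure D4:**
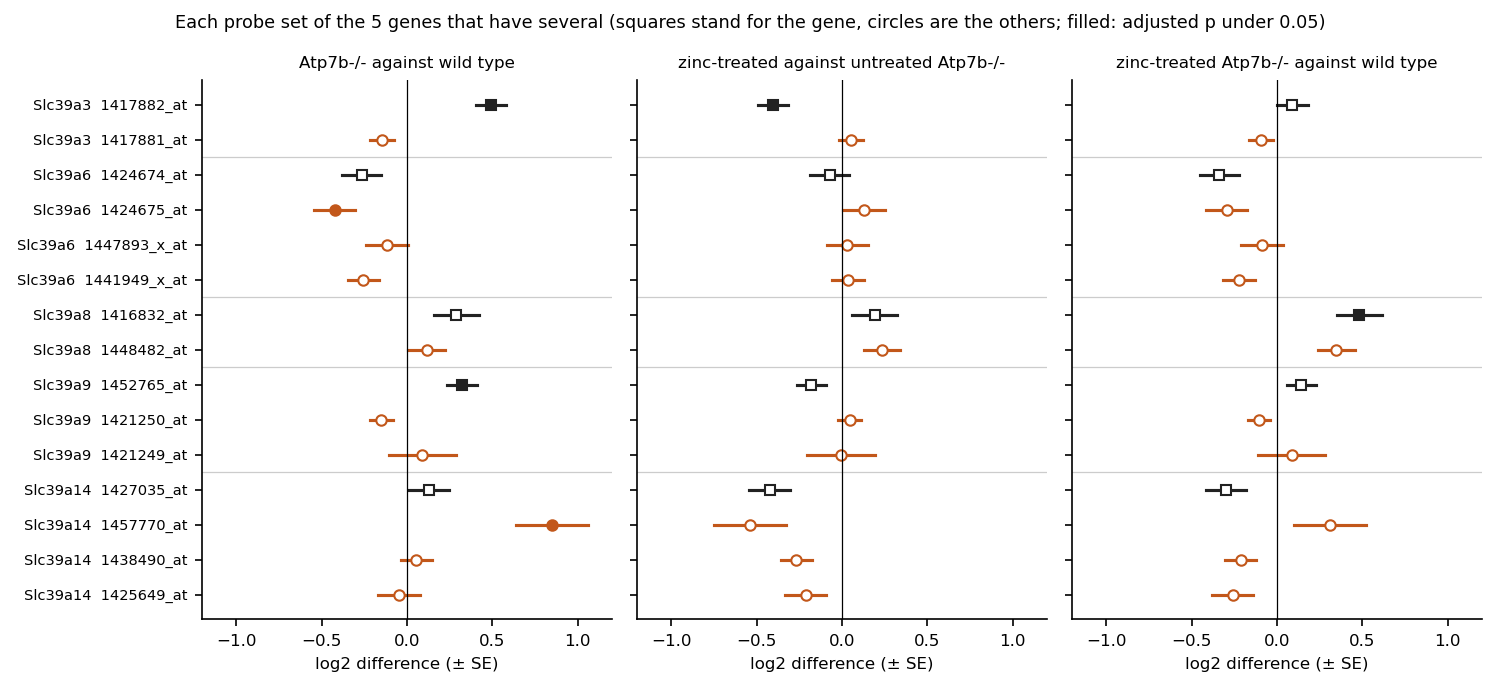
Log2 difference with its SE for every probe set of the 5 importers that have several, in the 3 comparisons; squares stand for the gene, circles are the other probe sets, and filled symbols had an adjusted p under 0.05. For Slc39a3 the called square at 0.49 and its circle at -0.15 lie on opposite sides of 0, and for Slc39a14 the circle of 1457770_at at 0.85 lies apart from the others.

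The other 4 genes of the family on the array, Slc39a2, Slc39a10, Slc39a12 and Slc39a13, gave 1 call in the 3 comparisons. Slc39a10, a plasma membrane importer that pairs with Slc39a6, fell in Atp7b-/- by 1.09 (SE 0.37, limma adjusted p = 0.0477). Its levels were 7.35, 7.18, 7.55 and 8.20 in wild type and 5.40, 6.35, 7.47 and 6.70 in untreated Atp7b-/-, where the arrays overlapped and spread widely. With zinc it read 6.31, 7.23, 6.08 and 6.86, which was -0.95 against wild type (adjusted p = 0.153). The other probe set of Slc39a10, 1439041_at, gave -0.76 in Atp7b-/- against wild type, also with overlapping arrays (limma adjusted p = 0.0483 in the fit over probe sets). Slc39a2 was higher with zinc than without by 0.58, short of the threshold (adjusted p = 0.0578), and Slc39a12 and Slc39a13 differed by at most 0.12 in any comparison.

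Among the 10 zinc exporters of the Slc30a family, 2 rose and 1 fell in Atp7b-/- against wild type, 0 rose and 1 fell with zinc against untreated, and 2 rose and 0 fell in zinc-treated Atp7b-/- against wild type. Beside these counts and those of the lists below stand the shares of all genes called higher and lower. They were 14.3% and 10.3% in the first comparison, 1.7% and 4.84% in the second, and 4.89% and 2.73% in the third. Slc30a1, the plasma membrane exporter and Mtf1 target, was higher in zinc-treated Atp7b-/- than in wild type by 0.67 (limma adjusted p = 0.0328), with 0.39 in untreated Atp7b-/- (adjusted p = 0.115). Slc30a9 was higher in both mutant groups, by 0.33 and 0.30 (adjusted p = 0.00961 and 0.0393). Slc30a8, the vesicle exporter of pancreatic beta cells, was 0.55 higher in Atp7b-/- (adjusted p = 0.00135) and lower with zinc by 0.49 (value -0.49, adjusted p = 0.0101), at group means of 4.26 to 4.81 among the dim genes. Slc30a3 fell in Atp7b-/- (-0.28, adjusted p = 0.0296). The exporters' median differences in the 3 comparisons were 0.03, -0.03 and 0.05.

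The metallothioneins Mt1 and Mt2, which bind zinc and copper and are the standard readout of Mtf1, rose in both mutant groups against wild type. Their differences were 5.63 and 5.72 in untreated Atp7b-/- (limma adjusted p = 9.56e-06 and 5.27e-07) and 5.37 and 5.55 with zinc (adjusted p = 4.28e-05 and 2.03e-06). Wild type arrays spread from 7.14 to 11.17 for Mt1. Between zinc-treated and untreated Atp7b-/- the differences were -0.26 and -0.17, and neither passed the test. Mtf1 itself was called in no comparison, at -0.10, -0.18 and -0.28, nor were Mt3 and Mt4. Mt1 stood between 14.29 and 14.79 on all mutant arrays, near the top of the scale, which limits how far its differences could be read. The median over these 5 genes was 0.05, -0.17 and 0.01 in the order of the comparisons.

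Genes that share iron and manganese with Slc39a14 and Slc39a8 were taken as a list of 12, of which 11 were measured. In Atp7b-/- against wild type 1 rose and 2 fell: the transferrin receptor Tfrc rose by 1.47 (limma adjusted p = 0.00517), the iron exporter Slc40a1 fell by 0.75 (adjusted p = 6.85e-05) and Steap3, the endosomal ferrireductase, fell by 0.26 (adjusted p = 0.0491). With zinc against untreated 1 rose and 0 fell, Slc11a2, the proton-coupled metal importer also called DMT1, at 0.47 (adjusted p = 0.0491). Against wild type 0 rose and 1 fell with zinc, Slc40a1 at -0.57 (adjusted p = 0.00190). Median differences were -0.06, -0.03 and -0.08.

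Slc39a14 is induced by interleukin 6 and by endoplasmic reticulum stress, so both responses were listed beside it. Of 16 interleukin 6 and acute phase genes, 1 rose and 1 fell in Atp7b-/-: the receptor subunit Il6st by 0.21 (limma adjusted p = 0.0305) and Crp by -0.30 (adjusted p = 0.0272). Zinc-treated against untreated gave 0 calls in either direction, and zinc-treated against wild type gave Crp alone, at -0.34 (adjusted p = 0.0347). Their medians were -0.13, -0.15 and -0.13. The list mean varied within wild type, at 10.75, 11.89, 11.26 and 10.41, with replicate 2 the highest of all 12 arrays. On those 4 arrays its order was that of Slc39a14 (10.25, 10.75, 10.57 and 10.21). The list means of the unfolded protein response genes and of the macrophage markers, described below, had the same order there, so it is not particular to this list. The interleukin 6 and acute phase list mean was 11.19, 10.88, 10.87 and 10.79 in Atp7b-/- without zinc. With zinc it was 10.35, 10.96, 10.51 and 10.33, and in both mutant groups the orders differed from those of Slc39a14. The part of this spread in the Slc39a14 differences was not tested.

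Of 14 genes of the unfolded protein response, 2 rose and 4 fell in Atp7b-/-. Atf3 rose by 0.86 (limma adjusted p = 0.00637), and Sdf2l1, Herpud1 and Ddit3 fell by 1.64, 1.27 and 1.24 (adjusted p = 0.00133, 0.000985 and 9.98e-05). With zinc Atf3 fell by 0.93 against untreated (adjusted p = 0.0126), as the only call in that comparison. Against wild type 1 rose and 2 fell with zinc, namely Trib3 (0.87), Ddit3 (-1.15) and Herpud1 (-0.85). Medians were -0.37, 0.17 and -0.12.

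Cell type markers were set beside the importers because zinc transporters differ between liver cells. Hepatocyte markers, with array means between 13.50 and 13.73, were high on every array as the liver label requires, and gave 1 call up and 1 down of 11 in Atp7b-/- against wild type, 1 down with zinc against untreated and 0 against wild type. Macrophage markers fell in Atp7b-/-, 7 of 12 with 0 higher, among them Adgre1, Csf1r, C1qa and C1qc at -0.71, -0.71, -0.67 and -0.75, with a list median of -0.66 (limma adjusted p = 0.00839, 0.0161, 0.0163 and 0.0177). Their list mean ran from 7.95 to 8.87 in wild type and from 7.70 to 8.07 with zinc. In untreated Atp7b-/- it was 8.52 on replicate 1, within the wild type range, and 7.53, 7.77 and 7.52 on replicates 2 to 4. Of these markers 0 were called in the other comparisons. In zinc-treated Atp7b-/- against wild type all 12 were nevertheless below 0 (median -0.58), and in zinc-treated against untreated 3 were (median 0.08).

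Endothelial markers gave 1 higher and 3 lower of 10 in Atp7b-/- (Tek 1.54 and Clec4g -0.82 among them), 1 and 1 with zinc against untreated, and 0 and 1 with zinc against wild type. Stellate cell markers gave calls with zinc against untreated alone, 3 higher of 10 (Reln 0.61, Lum 0.45 and Col3a1 0.74). Of 8 cholangiocyte markers, Krt19 rose in Atp7b-/- (0.47), and 0 of 9 lymphocyte and 0 of 8 islet markers were called in any comparison. Intestinal markers gave 2 lower of 8 in Atp7b-/- and 1 higher with zinc against untreated (Cdx2, 0.42). The part of these cell types in the importers' differences was not tested.

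For the importers with the largest called differences, the genes with the most similar levels over the 12 arrays were looked up among 9095 genes above the median level. Slc39a11 was most like Nat10 (Pearson r = 0.98), Fam53b (r = 0.967) and Ndufaf8 (r = 0.958). Fam53b had mean levels of 6.45 in wild type, 7.81 in untreated Atp7b-/- and 6.75 with zinc. Slc39a4 was most like Nupr1 (r = 0.858), Tapbpl (r = 0.854) and Prcp (r = 0.826), with Nupr1 at 6.58, 6.67 and 7.39. These r values describe the 12 arrays, which share the group differences, and carry no test.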

How the data were processed

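Mouse liver RNA was measured on 12 Affymetrix GeneChip mouse arrays. The deposited values are log2 intensities, 1 per probe set and array, from 2.22 to 15.2 with array medians of 5.63 to 5.71. The sources used here do not name the authors' normalization, and the values were used as deposited. Of 45101 probe sets, 64 controls were left out. Of the others 34945 had 1 gene symbol, 932 several and 9160 none, and the 34945 were kept. Each of 18193 genes was read from its brightest probe set by mean of all arrays.

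Groups were taken from the labels and compared in 1 limma fit over all arrays (limma 3.58.1, R 4.3.3; lmFit, contrasts.fit, eBayes), with Benjamini-Hochberg adjustment over all genes of a comparison and a threshold of 0.05. Every adjusted p is limma's. The fit was checked on simulated data. No arrays held identical values.

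Named genes are the 10 members, Atp7b, up to 4 called genes with the smallest adjusted p from each other list, all genes of lists of 5 or fewer, and 3 genes most like the members with the largest called differences. The 10 members, all gene lists (family, exporters, metallothioneins, iron and manganese, interleukin 6 and acute phase, unfolded protein response, and 9 cell type lists) and most alternatives were chosen with earlier results of these data known. The 25 alternatives covered scaling, probe set choice, variance models, array weights, the replicate number as a block and arrays left out. Those on the distribution of array values were added after seeing the data. Promoters came from RefSeq, build GRCm38.p6. Slc39a4 and Slc39a14 had no promoter entry, and that of Slc39a6 was not used.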

Additional observations from a re-analysis of the deposited data

Results flagged for a closer look

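In 60 sets of 4 arrays, 1 for each probe set of the importers and each group, 2 held an array far from the other 3. Chance marks about 1 in 20 such sets. Probe set 1457770_at of Slc39a14 read 8.84 on zinc-treated replicate 2, against 7.81 to 7.92 on the other zinc-treated arrays. That array also had the highest acinar marker mean (9.30), and the part of pancreatic RNA in this value was not tested. Probe set 1421250_at of Slc39a9 read 6.07 on untreated Atp7b-/- replicate 3, against 6.01 to 6.02 on the other arrays of its group, a gap of small size.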

How the results depend on the processing

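In each comparison 25 alternatives were run. An importer that was called in neither setting was counted as unchanged whatever its sign, and no called difference changed sign. Members called higher in Atp7b-/- against wild type numbered 3 when any 1 array was left out, and 2 to 4 otherwise. Members called lower there went from 0 to 1 after quantile normalization (Slc39a1), and, for Slc39a6, with the mean of all probe sets, array weights, and without untreated Atp7b-/- replicate 1 alone or together with the zinc-treated arrays with pancreatic transcripts (range without 1 array 0 to 1). All genes called fell from 4480 to 2640 without the 3 arrays of narrower distribution. In zinc-treated against untreated Atp7b-/-, members called higher went from 0 to 1 after quantile normalization, with a trended robust variance, without dim genes and without the arrays with pancreatic transcripts, to 2 with array weights, and to 0 to 1 without 1 array (1 without wild type replicate 1 or untreated Atp7b-/- replicate 3). Members called lower went from 3 to 1 with the mean of all probe sets, without the arrays with pancreatic transcripts, without these and untreated Atp7b-/- replicate 1, and without the arrays of narrower distribution, and ranged from 1 (without untreated Atp7b-/- replicate 4) to 3 without 1 array. All genes called went from 1190 to 1861 with array weights, 614, 598 and 703 without those 3 sets of arrays in turn, and 689 (without untreated Atp7b-/- replicate 4) to 1158 without 1 array. In zinc-treated Atp7b-/- against wild type, members called higher went from 2 to 1 after median centring, in a fit of only the 2 groups and without each of the 3 sets, and ranged from 1 to 2 without 1 array, where Slc39a8 lost its call without wild type replicate 1 or 3, untreated Atp7b-/- replicate 2, 3 or 4, or zinc-treated replicate 1, 2 or 4. Members called lower ranged from 0 to 1 without 1 array (1 without untreated Atp7b-/- replicate 1, Slc39a6). All genes called went from 1386 to 699, 881 and 502 without the 3 sets and ranged from 932 to 1639 without 1 array. Settings that left arrays out also had fewer arrays, and the cause of the changed counts was not tested.

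The share of called genes that were higher was 58.2% in Atp7b-/- against wild type, 49.6% after quantile normalization and 68.1% after median centring. For zinc-treated against untreated it was 26.0%, 40.0% and 19.7%, and for zinc-treated against wild type 64.2%, 58.0% and 69.1%. Same-numbered arrays deviated from their group means with r of -0.13 to 0.237. The best match in the other group had the same number for some arrays and another number for others. No range for unpaired arrays was computed, so these r values do not settle whether the numbers pair the samples. With the replicate number as a block, Slc39a14 in zinc-treated against untreated Atp7b-/- had an adjusted p of 0.0709 and Slc39a8 in Atp7b-/- against wild type one of 0.0288, at the differences of -0.42 and 0.29, and members called higher in Atp7b-/- numbered 4. Slc39a7 has no value without probe sets shared between transcripts. For Slc39a6 the dimmest probe set, 1441949_x_at, lay under the lower quartile of every array, and it enters the mean of all probe sets. Probe set 1424674_at, which stands for the gene, had a mean of 6.28 over all arrays.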
